A study of Mus musculus with 34 samples.

Results

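The comparison followed NaJa-G, a mouse colorectal cancer cell line, through 4 days of culture in the solvent DMSO without any drug. Of the 34 RNA-seq libraries of the series, 5 belong to it by line, solvent and harvest day, with 3 from day 1 and 2 from day 5 (replicates 1 and 3), and each of the 14107 genes of the count table was tested. NaJa-G cells have the genotype VillinCreERT2::BrafV600E/+::Trp53R172H::APCdel on the C57BL/6N strain, so that an activated BRAF kinase, a mutant p53 and the loss of APC are carried by every library, at both days. The cells grew in DMEM with serum and received DMSO in fresh medium on day 0, and the cells for day 5 received it again on day 2 and day 4, so that both harvests followed the last change of medium by 1 day. For comparison, the same interval was read in the DMSO cultures of the sister lines NaJa-D and NaJa-F and in NaJa-G under the BRAF inhibitor encorafenib at 0.5 µM, each with 3 libraries per day.

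As a model, NaJa-G is 1 line, grown out of the peritoneal lavage of 1 mouse that had received recombined colon organoids. The study describes that host cells were lost over passages. It describes NaJa-G as mesenchymal-like, with more vimentin, ZEB1 and N-cadherin protein than the sister lines. In its blots of the cultured lines, E-cadherin protein was highest in NaJa-D. In its stainings, tumours grown from NaJa-G in mice lacked CDX2 and E-cadherin. The values below are RNA of cultured cells, another measure than protein in tumours. The Villin promoter directs the tamoxifen-inducible Cre recombinase to the intestinal epithelium. Epithelial genes were present at both days: Cdh1, which encodes E-cadherin, lay at 494 to 584 CPM (counts scaled to a common library size), the adhesion molecule gene Epcam at 65.1 to 93.4 CPM and the intestinal transcription factor gene Cdx2 at 7.86 to 9.88 CPM. Vil1, which encodes villin itself, was close to absent at 0.442 to 0.942 CPM. The labels do not say whether replicates were separate cultures, so that p-values then measure only the spread between these samples, which may be technical. Days in culture, the day of harvest and the RNA preparation cannot be told apart. The study states that confluence was checked to be consistent before harvest, and an effect of cell density was not tested here.

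Total counts of the 5 libraries ran from 56441590 to 80121299, against 46007050 to 80121299 over all 34. Replicate 1 of day 1 stood apart from its group: its variance against replicates 2 and 3 was 47.9 and 46.3 times the counting variance, while replicates 2 and 3 differed from each other by 3.64 times. The day 5 libraries differed by 68.6 times the counting variance, so that every pair held more than counting noise and was kept as separate samples. The share of counts from mitochondrially encoded genes was 4.61%, 4.25% and 4.14% at day 1 and 1.77% and 1.19% at day 5.

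Several programmes that appear below have well-known controls. The transcription factor SREBP2 is held in the endoplasmic reticulum while sterols are plentiful and activates the genes of cholesterol synthesis and uptake when they are scarce, and its relative SREBP1 activates genes of fatty acid synthesis. Loss of APC lets β-catenin accumulate and drive the targets of WNT signalling, several of which are feedback inhibitors of the pathway. Serum response factor (SRF) and its actin-sensing partners control genes of the contractile cytoskeleton, several of which are highly expressed in smooth muscle and myofibroblasts.

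Day 5 was compared with day 1 by limma, with 1 mean per group over all 34 libraries and a threshold of 0.01 on the adjusted p. Of the 14107 genes, 4804 passed (34.1%), of which 2432 rose (17.2% of all genes) and 2372 fell (16.8%). Most of these changes were small, since the median size of the log2 fold change over all genes was 0.25 with a median standard error (SE) of 0.10, and 559 genes passed with a change of at least 1 on the log2 scale, 309 upwards and 250 downwards. The libraries of the days did not overlap for 7823 genes (55.5%), among them 4773 of the 4804. When only the 5 libraries entered the fit, 1182 genes passed, 758 upwards and 424 downwards, and 1181 of them had also been called in the same direction before. Scaling by library size alone moved the median of all genes to 0.07 and the share of rises among the calls from 50.6% to 62.4%.

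Against these shares of all genes, the gene lists separated by direction. Cholesterol synthesis, fatty acid synthesis, WNT targets and cell cycle inhibitors held rises and no falls, whereas ribosome biogenesis, cytosolic ribosomal proteins, DNA replication and mitochondrially encoded genes held falls and no rises. Mixed lists included matrix proteins, YAP and TEAD targets, and ERK output.

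**Figure D1:**
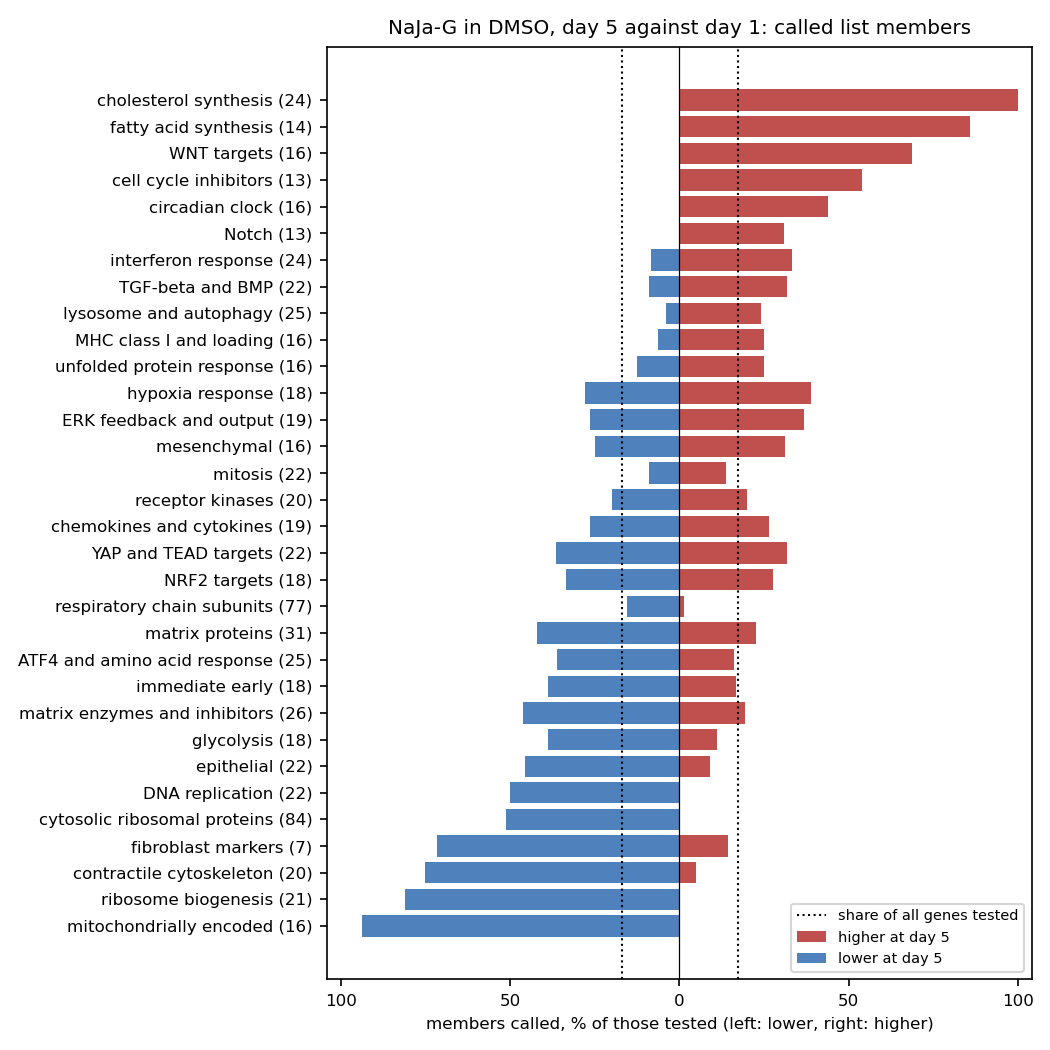
Share of the tested members of each gene list that were called higher (bars to the right) or lower (bars to the left) at day 5 than at day 1 in NaJa-G under DMSO, in percent. Dotted lines give the shares over all 14107 genes, 17.2% higher and 16.8% lower, and the bar of cholesterol synthesis reaches 24 of 24 members.

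Genes of cholesterol synthesis rose together. Of the 24 listed, 24 were called higher and none lower, with log2 fold changes of up to 1.41 and a median of 0.74, against 17.2% called higher and a median of 0.00 over all genes. With only the 5 libraries in the fit, 18 of the 24 passed. The sequences in front of these genes are given first, because the members moved as a block. RefSeq promoters (GRCm38.p6, from 250 bases before to 50 bases after the start) were at hand for 16 of the 24 genes, and for 10225 of the 14107 tested. Each of the 16 held the letters CCAAT on either strand (100%), against 43% of the tested genes with a promoter and 37.4% of all promoters in the table. A high share was not particular to this list. It was 92.9% for listed genes of the unfolded protein response and 88.2% for mitotic genes, whose median log2 fold changes were 0.00 and 0.05. For the WNT targets, which rose, it was 45.5%. The letters TCACNCCAC, a form of the sterol regulatory element (SRE), were searched on both strands and were found in 1 of the 16 (6.25%), Hmgcs1, against 1.46% of the tested genes and 1.24% of all promoters. The SRE letters of Hmgcs1 overlap none of its CCAAT matches. Among those with no promoter at hand were Fdft1, Fdps, Sqle and Stard4. The 5 members with the highest fold changes among those with a promoter are shown, 5′ to 3′ on the strand of the gene, with CCAAT, its complement ATTGG and the SRE letters in capitals. They lie at chr5:28071162-28071461 (plus strand, Insig1), chr19:6067801-6068100 (minus strand, Tm7sf2), chrX:72918271-72918570 (plus strand, Nsdhl), chr13:119690101-119690400 (plus strand, Hmgcs1) and chr1:169969156-169969455 (minus strand, Hsd17b7). A match is a description of the letters and not a bound site.
Insig1: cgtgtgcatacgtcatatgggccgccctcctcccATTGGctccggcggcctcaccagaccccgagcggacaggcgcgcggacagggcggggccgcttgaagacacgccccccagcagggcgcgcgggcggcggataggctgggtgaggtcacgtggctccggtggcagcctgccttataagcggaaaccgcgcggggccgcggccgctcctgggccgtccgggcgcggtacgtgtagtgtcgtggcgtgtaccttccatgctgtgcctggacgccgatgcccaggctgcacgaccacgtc
Tm7sf2: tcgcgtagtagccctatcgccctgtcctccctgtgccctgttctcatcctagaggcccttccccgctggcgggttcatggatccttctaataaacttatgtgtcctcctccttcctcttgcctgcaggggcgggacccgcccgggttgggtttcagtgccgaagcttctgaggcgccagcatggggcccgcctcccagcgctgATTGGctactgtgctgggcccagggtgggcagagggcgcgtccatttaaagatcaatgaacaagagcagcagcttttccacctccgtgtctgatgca
Nsdhl: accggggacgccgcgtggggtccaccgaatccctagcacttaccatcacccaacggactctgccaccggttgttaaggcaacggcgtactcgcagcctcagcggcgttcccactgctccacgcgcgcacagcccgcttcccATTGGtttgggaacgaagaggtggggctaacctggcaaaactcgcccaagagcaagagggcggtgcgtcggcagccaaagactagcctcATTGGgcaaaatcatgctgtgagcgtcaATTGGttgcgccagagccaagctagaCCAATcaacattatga
Hmgcs1: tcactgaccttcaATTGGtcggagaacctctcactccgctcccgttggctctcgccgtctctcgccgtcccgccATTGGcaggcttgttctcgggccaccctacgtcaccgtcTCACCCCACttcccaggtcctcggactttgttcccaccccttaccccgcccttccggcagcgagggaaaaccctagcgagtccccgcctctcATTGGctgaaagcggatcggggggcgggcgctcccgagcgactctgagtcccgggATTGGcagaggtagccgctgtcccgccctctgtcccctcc
Hsd17b7: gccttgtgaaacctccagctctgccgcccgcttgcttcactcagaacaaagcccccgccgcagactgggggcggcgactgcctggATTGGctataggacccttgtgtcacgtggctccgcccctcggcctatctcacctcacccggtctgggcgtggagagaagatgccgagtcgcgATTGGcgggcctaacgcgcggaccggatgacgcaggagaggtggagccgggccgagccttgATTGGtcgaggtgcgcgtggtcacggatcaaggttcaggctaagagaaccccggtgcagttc

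Insig1 (ENSMUSG00000045294, chromosome 5, 28071363 to 28078662), whose product anchors the SREBP complex in the endoplasmic reticulum and is itself a target of SREBP, had 128, 123 and 116 CPM at day 1 and 318 and 331 CPM at day 5. Its log2 fold change of 1.41 (SE 0.07, adjusted p = 1.27e-14) was the highest of the list, and the days did not overlap. Hmgcs1 (ENSMUSG00000093930, chromosome 13, 119690379 to 119708260), which encodes the enzyme that makes HMG-CoA, went from 166, 151 and 150 CPM to 336 and 331 CPM, a log2 fold change of 1.10 (SE 0.06, adjusted p = 1.25e-13). The means of Insig1 and Hmgcs1 thus stood 2.66-fold and 2.14-fold higher at day 5. Further down the route, the log2 fold change was 1.32 for Fdps, the farnesyl diphosphate synthase, 1.27 for Tm7sf2, a sterol reductase, 1.19 for Nsdhl and 0.99 for Hsd17b7, which act in sterol demethylation and reduction, 0.97 for Cyp51, the lanosterol demethylase, and 0.94 for Lss, the lanosterol synthase. Sqle, the squalene epoxidase, rose by 0.73, and Ebp, which acts late in the route, by 0.35.

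Genes of the same list that act outside the route itself moved with the enzymes. Srebf2, which encodes SREBP2, went from 551, 465 and 449 CPM at day 1 to 694 and 797 CPM at day 5 (log2 fold change 0.61, adjusted p = 4.15e-05). Stard4, which encodes a carrier of cholesterol within the cell, went from 122, 119 and 113 CPM to 205 and 196 CPM (0.76, SE 0.06, adjusted p = 4.25e-11). In both genes, each day 5 library lay above each day 1 library.

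The same genes over the same days moved less in the other cultures. In NaJa-D under DMSO 16 of the 24 rose (13.7% of all genes were called higher there) with a median of 0.47, and in NaJa-F 11 rose (9.73% of all genes) with a median of 0.25, and none fell in either line. In NaJa-G under encorafenib, 3 rose (20.6% of all genes) and 6 fell (20.4% of all genes), with a median of -0.08. The difference between the intervals themselves was called for 11 genes against NaJa-D (14.8% of all genes differed), for 15 against NaJa-F (6.27%) and for 23 against encorafenib (31.7%), in each case with the larger value in NaJa-G under DMSO. Insig1 was an exception against NaJa-D, where it rose by 1.37 and the difference of 0.04 was not called (adjusted p = 0.80). Tm7sf2 rose by 1.27 under DMSO and fell by 0.56 on the log2 scale under encorafenib. By day 5, Hmgcs1 averaged 333 CPM under DMSO and 190 CPM under encorafenib in NaJa-G, from 156 and 200 CPM at day 1.

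**Figure D2:**
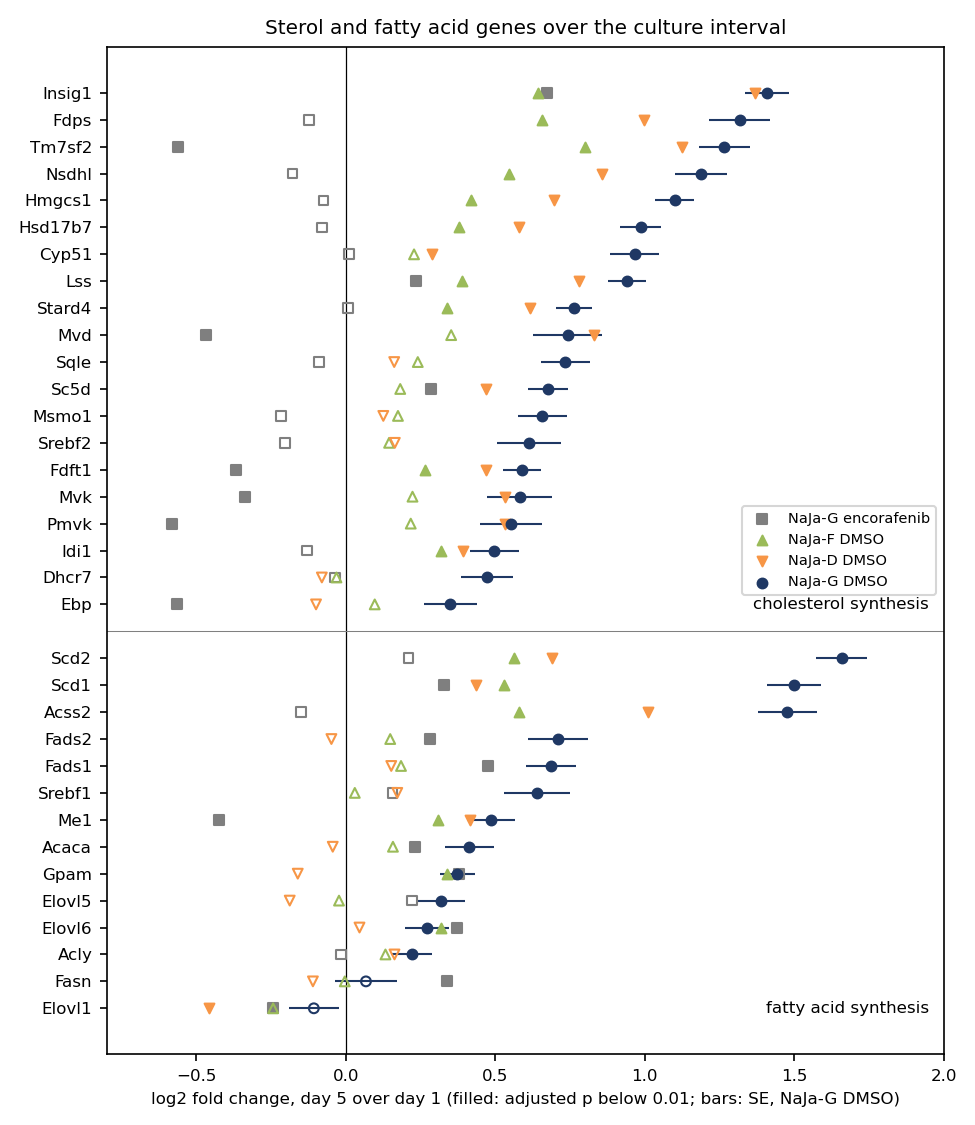
Log2 fold change from day 1 to day 5 of listed genes of cholesterol synthesis (upper part) and fatty acid synthesis (lower part) in 4 cultures, with filled symbols for an adjusted p below 0.01 and SE bars for NaJa-G under DMSO. The NaJa-G DMSO points lie to the right of 0 for each cholesterol gene shown, while those under encorafenib scatter around 0 (median of the whole list -0.08).

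Fatty acid synthesis rose as well, led by the desaturases. Of 14 listed genes, 12 were called higher and none lower, beside 17.2% and 16.8% of all genes. The median was 0.45, and 7 of the 12 passed with only the 5 libraries in the fit. Scd2 (ENSMUSG00000025203, chromosome 19, 44293674 to 44306864), which encodes a stearoyl-CoA desaturase, had 1041, 958 and 916 CPM at day 1 and 2994 and 3130 CPM at day 5, a log2 fold change of 1.66 (SE 0.09, adjusted p = 1.08e-14). Its paralog Scd1 rose from 116 to 139 CPM to 346 and 359 CPM (1.5), and Acss2, which makes acetyl-CoA from acetate, from 3.31 to 4.10 CPM to 9.37 and 11.3 CPM (1.48). The desaturase genes Fads2 and Fads1 rose by 0.71 and 0.68 and Srebf1, which encodes SREBP1, by 0.64, whereas Fasn, the fatty acid synthase gene itself, stood at 0.07 (adjusted p = 0.63) and Elovl1 at -0.11 (adjusted p = 0.314). Lpin1, whose product makes diacylglycerol for lipid synthesis and which was not on the list, went from 13.0, 12.3 and 10.7 CPM to 43.9 and 45.6 CPM, a log2 fold change of 1.89. The rises of Scd2 and Scd1 were larger than in NaJa-D by 0.97 and 1.06 and than in NaJa-F by 1.10 and 0.97, and each of these differences was called. Under encorafenib 7 of the 14 rose and 2 fell, beside 20.6% and 20.4% of all genes.

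WNT target genes rose in NaJa-G over the interval although each library carries the loss of APC. Of 16 listed genes 11 were called higher (68.75%, beside 17.2% of all genes) and none lower (16.8% of all genes). The median was 0.57, and 9 of the 11 passed with only the 5 libraries in the fit. Notum (ENSMUSG00000042988, chromosome 11, 120653788 to 120661175), which encodes a secreted enzyme that inactivates WNT ligands, had 11.3, 13.4 and 15.3 CPM at day 1 and 58.9 and 82.2 CPM at day 5, a log2 fold change of 2.41 (SE 0.13, adjusted p = 2e-14). Lgr5, the R-spondin receptor that marks intestinal stem cells, went from 6.5, 7.66 and 7.02 CPM to 22.1 and 20.1 CPM (1.58, SE 0.07, adjusted p = 6.1e-16). Apcdd1, a membrane inhibitor of the pathway, went from 34.3, 30.7 and 29.5 CPM to 86.9 and 105 CPM (1.60, SE 0.08, adjusted p = 1.33e-14). In each of these genes the lowest day 5 library was more than 2 times as high as the highest day 1 library.

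Further feedback inhibitors changed by smaller factors. Axin2, a scaffold of the β-catenin destruction complex and a general read-out of the pathway, went from 217, 223 and 219 CPM to 405 and 428 CPM (0.92, SE 0.07, adjusted p = 2.99e-11). Rnf43, a ligase that removes WNT receptors, went from 105, 99.8 and 90.1 CPM to 188 and 191 CPM (0.95), its relative Znrf3 rose by 0.56 and the Dishevelled antagonist Nkd1 by 1.10. The transcription factor genes Tcf7 and Sox9 rose by 0.59 and 0.53, the receptor gene Tnfrsf19 by 0.67 and the ephrin receptor gene Ephb3 by 0.42. The remaining 5 did not pass, with log2 fold changes of 0.22 for Lef1, 0.48 for Prox1, 0.08 for Cd44, -0.06 for Sp5 and -0.16 for Ephb2. Wnt4, a WNT ligand gene outside the list, had 10.8, 8.96 and 9.22 CPM at day 1 and 36.4 and 40.6 CPM at day 5 (1.99, adjusted p = 4.72e-15).

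The letters CTTTGAT, a binding motif of the TCF partners of β-catenin, were searched on both strands and were in 2 of the 11 promoters at hand for this list (18.2%), against 3.08% of the tested genes and 3.73% of all promoters. They are shown with the motif in capitals as the lines that hold it, at chr2:70474784-70474860 on the plus strand for Sp5 and at chr14:61038148-61038224 on the minus strand for Tnfrsf19. Tnfrsf19 rose, and Sp5 did not pass the test.
Sp5: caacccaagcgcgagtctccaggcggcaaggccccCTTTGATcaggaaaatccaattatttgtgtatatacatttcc
Tnfrsf19: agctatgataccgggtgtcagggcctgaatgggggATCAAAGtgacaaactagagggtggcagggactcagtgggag

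**Figure D3:**
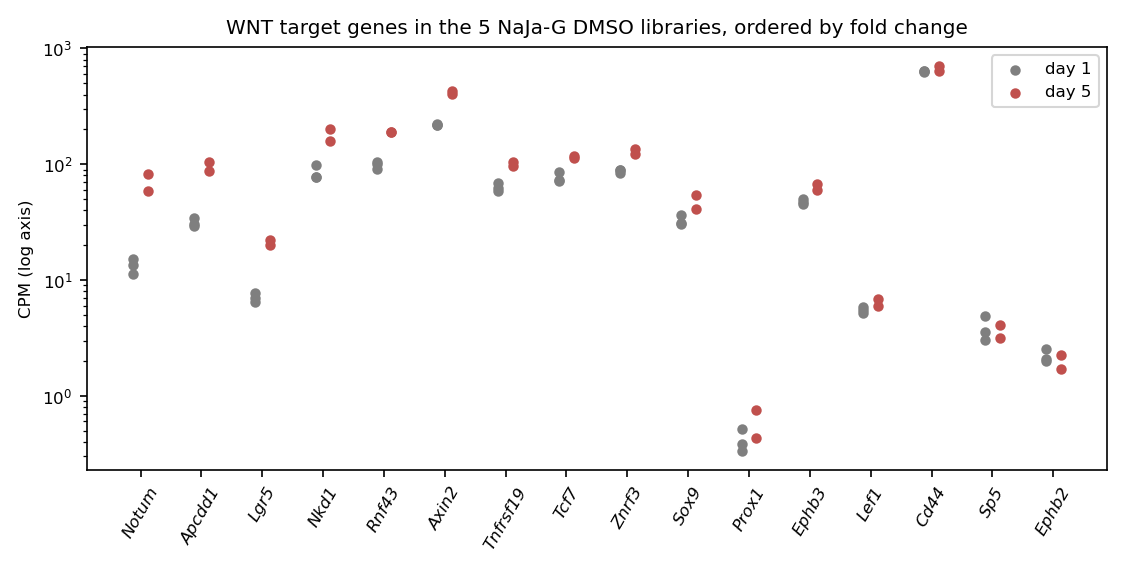
Level of the 16 WNT target genes in each of the 5 NaJa-G DMSO libraries, in CPM on a log axis, with day 1 and day 5 libraries marked apart. For Notum the 2 day 5 libraries lie at 58.9 and 82.2 CPM, above the 11.3 to 15.3 CPM of the 3 day 1 libraries, and the points of Cd44 and Sp5 overlap between the days.

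In NaJa-F 9 of the 16 WNT targets rose and none fell, beside 9.73% and 7.01% of all genes. In NaJa-D 4 rose and 2 fell, beside 13.7% and 15.3% of all genes. Notum rose in both (1.90 and 1.84), and for this gene the difference from NaJa-G was not called (adjusted p = 0.093 and 0.098). Apcdd1, in contrast, fell in NaJa-D by 0.55 on the log2 scale, and the difference of 2.15 was called (adjusted p = 4.5e-11). Under encorafenib, 3 of the 16 rose and 8 fell (median -0.39), beside 20.6% and 20.4% of all genes. Axin2 was not called there (adjusted p = 0.769), with a mean of 428 CPM at day 1 and 434 CPM at day 5 with encorafenib, against 220 and 417 CPM with DMSO. Notum, which fell, had a mean of 82.2 CPM at day 1 of encorafenib and 54.9 CPM at day 5, against 13.3 CPM at day 1 of DMSO. Tcf7 fell as well, from 59.2 to 39.6 CPM, but its day 1 mean with encorafenib lay below the 76.9 CPM at day 1 of DMSO. The difference of the intervals between DMSO and encorafenib was called for 13 of the 16 genes (31.7% of all genes). The larger value lay under DMSO in 12 of them.

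Genes that myofibroblasts use for contraction fell, and some of them lost most of their level. Of 20 listed genes of the contractile cytoskeleton 15 were called lower and 1 higher (median -0.57), against 16.8% lower over all genes, and 7 of the 15 passed with only the 5 libraries in the fit. Acta2 (ENSMUSG00000035783, chromosome 19, 34241090 to 34255590), which encodes smooth muscle α-actin, had 32.5, 27.5 and 27.2 CPM at day 1 and 3.56 and 3.85 CPM at day 5. Its log2 fold change of -2.96 (SE 0.14, adjusted p = 1.16e-15), a 7.84-fold lower mean, was the lowest of the genes named here. Tagln, an actin-binding protein of smooth muscle, went from 13.7, 12.9 and 13.7 CPM to 5.82 and 4.25 CPM (-1.45, adjusted p = 1.14e-11). Tpm2, a tropomyosin, went from 4.84, 3.58 and 3.54 CPM to 0.569 and 0.679 CPM (-2.65), and the myosin light chain gene Myl9 from 2.77, 2.26 and 1.73 CPM to 0.401 and 0.360 CPM (-2.55). None of these groups overlapped. In bulk RNA, fewer cells of a kind that expresses such genes and less of their RNA per cell cannot be told apart.

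Genes of the same list that every cell uses fell less. Actb, the β-actin gene, went from 7253, 5786 and 5775 CPM to 3772 and 4410 CPM (-0.61, adjusted p = 3.9e-05), with its near-identical paralog Actg1 at -0.62, and both lost the call with only the 5 libraries in the fit (adjusted p = 0.0173 and 0.0205). Srf itself went from 84.0, 70.5 and 71.4 CPM to 47.0 and 57.9 CPM (-0.52, adjusted p = 9.2e-05, and 0.0215 with only the 5 libraries). Cald1, the caldesmon gene, fell by 0.80 and the calponin gene Cnn2 by 0.70, both on the log2 scale. Cnn1, another calponin gene, is not one that every cell uses, and it fell by 2.00 on that scale. Vcl, which links integrin contacts to actin, was the member that rose, from 156, 141 and 138 CPM to 200 and 191 CPM (0.43, adjusted p = 0.000302). Flna, Myh9, Cnn3 and Filip1l did not pass, at 0.00, -0.15, -0.12 and 0.16.

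The CArG box, the motif bound by SRF, was searched on both strands after these values had been seen. It was in 6 of the 18 promoters at hand for this list (33.3%), against 1.6% of the tested genes and 1.63% of all promoters, and none was found in the window of Acta2. Of the 6 genes, Myl9, Srf, Actg1 and Cnn2 fell, Vcl rose and Filip1l did not pass. The letters around the box, given in capitals, lie at chr2:156775268-156775347 (plus strand, Myl9), chr17:46556180-46556259 (minus strand, Srf), chr11:120348541-120348620 (minus strand, Actg1), chr10:79988509-79988588 (plus strand, Cnn2), chr14:20929148-20929215 (plus strand, Vcl) and chr16:57549145-57549224 (plus strand, Filip1l). The Srf line also holds another CArG box upstream of the marked one, which stands in lower case. The letters GGAATG, a motif of the TEAD factors, were in 7 of the 18 on either strand (38.9%), against 14.7% of the tested genes and 14.7% of all promoters, and overlaps of this motif with the CArG box were not counted.
Myl9: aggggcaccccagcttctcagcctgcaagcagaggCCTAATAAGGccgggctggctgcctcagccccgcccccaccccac
Srf: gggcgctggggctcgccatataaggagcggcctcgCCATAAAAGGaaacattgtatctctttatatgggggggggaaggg
Actg1: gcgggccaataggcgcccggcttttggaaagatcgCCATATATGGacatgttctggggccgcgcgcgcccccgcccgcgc
Cnn2: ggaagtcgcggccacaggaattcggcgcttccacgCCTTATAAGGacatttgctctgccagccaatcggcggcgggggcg
Vcl: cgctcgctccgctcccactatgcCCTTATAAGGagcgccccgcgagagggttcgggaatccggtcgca
Filip1l: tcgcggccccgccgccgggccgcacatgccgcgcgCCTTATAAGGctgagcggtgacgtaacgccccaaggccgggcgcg

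Fibrillar collagens and the proteins that mature them fell by similar factors, while the basement membrane genes named here moved in both directions. Of 31 matrix protein genes 13 were called lower and 7 higher, and of 26 matrix enzymes and inhibitors 12 were lower and 5 higher. The lower shares were 41.9% and 46.2%, beside 16.8% of all genes. The higher shares of 22.6% and 19.2% lay near the 17.2% of all genes. Their medians of 0.18 and -0.36 differed in sign, and in the fit with only the 5 libraries 8 and 4 genes of the lists were lower. Scaling by library size alone gave 11 matrix proteins higher, and without any single one of replicates 2 and 3 of day 1 and 1 and 3 of day 5, 3 enzymes and inhibitors were higher. Col1a1 (ENSMUSG00000001506, chromosome 11, 94936224 to 94953042) went from 50.9, 40.1 and 35.3 CPM to 9.92 and 12.1 CPM, a log2 fold change of -1.92 (SE 0.12, adjusted p = 4.12e-13), and its partner chain gene Col1a2 from 17.7, 15.5 and 14.2 CPM to 3.31 and 3.74 CPM (-2.16). Serpinh1, the collagen chaperone, went from 10.2, 9.17 and 9.61 CPM to 2.12 and 2.05 CPM (-2.21, adjusted p = 2.23e-11). Lox, which cross-links collagen, went from 5.64, 4.50 and 4.71 CPM to 1.12 and 0.859 CPM (-2.34). Thus the means of the chains, their chaperone and their cross-linking enzyme were 3.82-fold to 5.00-fold lower at day 5. Col3a1 and Col5a2 fell by 1.88 and 2.64, the fibrillin gene Fbn1 by 1.68 and the lysyl oxidase gene Loxl2 by 1.44, on the log2 scale.

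Nid1 (ENSMUSG00000005397, chromosome 13, 13437551 to 13512269), the basement membrane linker nidogen, fell from 12.8, 11.5 and 13.7 CPM to 2.32 and 2.27 CPM (-2.45, SE 0.15, adjusted p = 1.69e-13). The network collagens of the basement membrane rose instead, Col4a1 from 475, 404 and 405 CPM to 592 and 641 CPM (0.53, adjusted p = 2.05e-05) and Col4a2 by 0.53, as did the laminin chain gene Lamc1 by 0.61. Thbs1, the thrombospondin gene, rose from 648, 643 and 604 CPM to 1182 and 1136 CPM (0.88, adjusted p = 1.28e-10). Fn1, the fibronectin gene, did not pass (0.24, adjusted p = 0.0189). Plau, the urokinase gene, fell by 0.65, its receptor gene Plaur by 0.61 and Timp1, which encodes an inhibitor of matrix proteases, by 0.99 on the log2 scale, whereas Timp2 rose by 0.47 and the protease gene Mmp11 by 1.12.

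Of 10 fibroblast markers 7 were in the table, and Thy1, Lum and Fap were not analysed here. Of the 7, Col1a1, Col1a2, Col3a1, Pdgfrb and Postn fell, Pdgfra rose from 2.88 to 3.01 CPM to 5.28 and 5.11 CPM, and Dcn stayed at or below 0.360 CPM in each library without passing the test. The summed level of the 7 was 79.2, 67.0 and 59.1 CPM at day 1 and 21 and 23.4 CPM at day 5. The share of a fibroblast-like population in these values was not tested. Leukocyte markers gave no such change: the 3 of 11 in the table, Csf1r, Cd68 and Cd14, summed to 24.0 to 27.0 CPM at day 1 and 25.7 to 27.9 CPM at day 5, none of them was called, and Csf1r lay at or below 0.209 CPM. Of 5 endothelial and mesothelial markers 1 was called, Vwf, which rose (20%, beside 17.2% of all genes). Its level was 0.362 to 0.482 CPM and then 0.836 and 0.734 CPM. Regulators of the mesenchymal state did not follow the collagens. The repressor genes Zeb1 and Twist1 rose by 0.34 and 0.36, Snai2 fell by 0.37 on the log2 scale, and Vim, the vimentin gene, was not called (-0.16, adjusted p = 0.332). Of the 16 listed mesenchymal genes 5 were higher (31.25%) and 4 lower (25%), beside 17.2% and 16.8% of all genes. Without replicate 1 of day 5, 3 were higher, and without replicate 3 of day 5, 1 was lower.

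**Figure D4:**
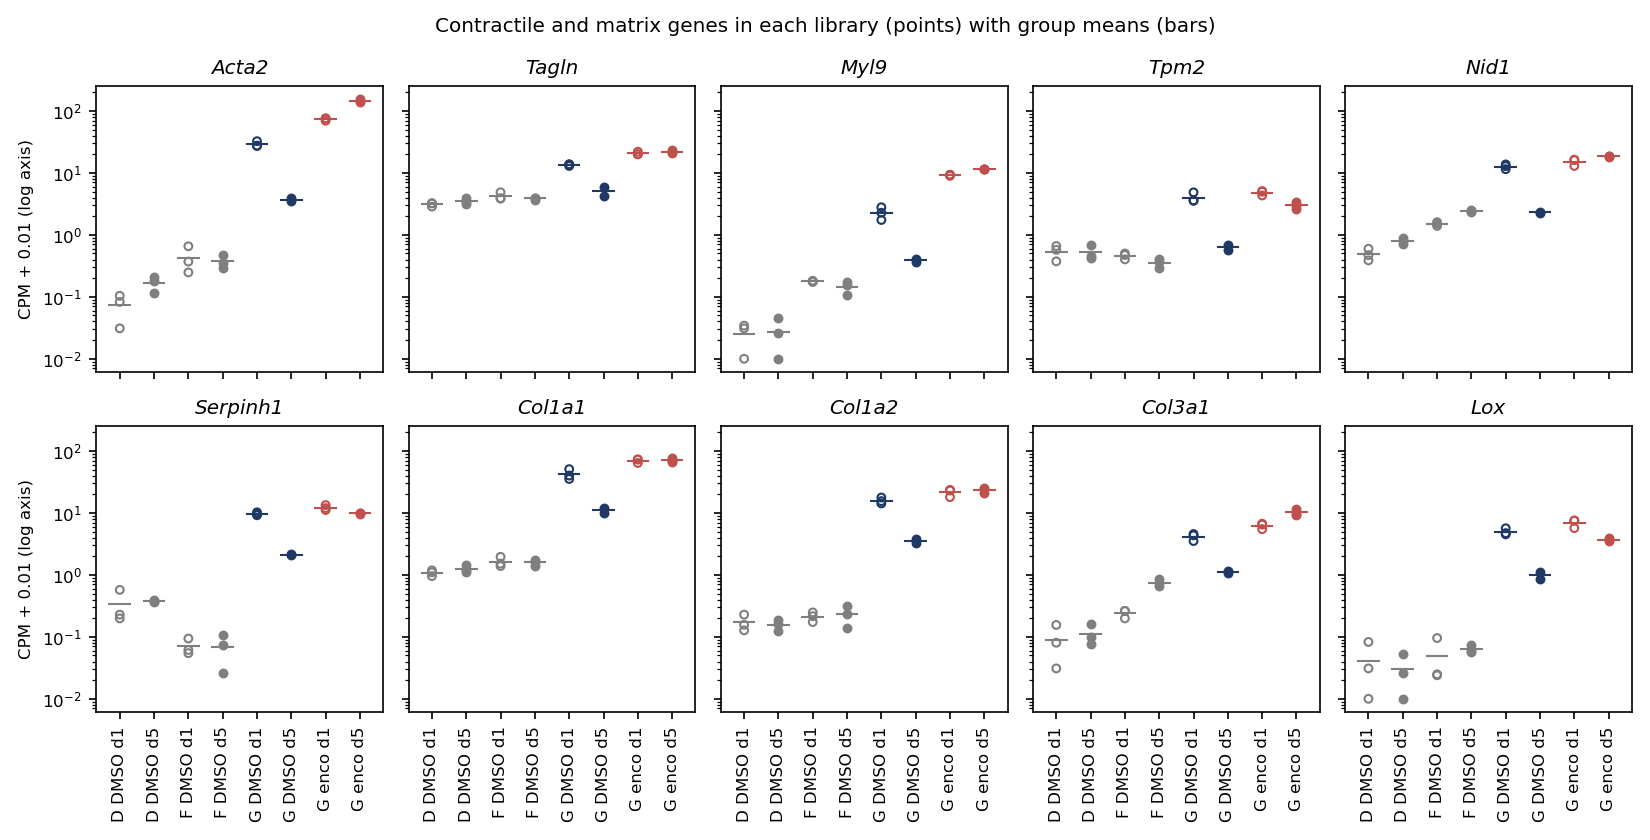
Level in CPM (log axis, 0.01 added) of 10 contractile and matrix genes in each library of 8 groups: NaJa-D and NaJa-F under DMSO and NaJa-G under DMSO and encorafenib at days 1 and 5, with bars for the group means. In NaJa-G under DMSO Acta2 drops from 27.2 to 32.5 CPM to 3.56 and 3.85 CPM, while its means with encorafenib are 73.5 and 145 CPM and those of NaJa-D stay at 0.0625 and 0.159 CPM.

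Acta2, Col1a1 and Nid1 fell in NaJa-G under DMSO and in none of the other 3 cultures. Of the 20 contractile genes 8 fell in NaJa-D (15.3% of all genes), 5 in NaJa-F (7.01%) and 8 under encorafenib (20.4%). Acta2 rose by 0.98 under encorafenib, from a mean of 73.5 CPM to 145 CPM, and was not called in NaJa-D or NaJa-F, where it averaged below 0.42 CPM at either day. The difference of the intervals was -3.95 against encorafenib, -4.30 against NaJa-D and -2.85 against NaJa-F, and each was called. Col1a1 stayed at 70.0 and 71.1 CPM under encorafenib and at 1.07 to 1.61 CPM in the group means of the other lines, with differences of -1.94, -2.14 and -1.90. Nid1 rose by 0.29 under encorafenib and by 0.70 in NaJa-F (difference -2.74 and -3.15). Loxl2 fell by 1.44 on the log2 scale under DMSO and rose by 1.52 under encorafenib.

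Immediate early genes and several targets of YAP fell, although neither list moved one way. Of 18 immediate early genes 7 were lower and 3 higher, of 22 YAP and TEAD targets 8 were lower and 7 higher, and of 19 genes of ERK feedback and output 5 were lower and 7 higher. Over all genes, 16.8% were lower and 17.2% higher. The higher share of immediate early genes (16.7%) lay near the latter. Egr1, a transcription factor gene induced within minutes by growth factors, went from 38.0, 32.7 and 34.4 CPM to 9.40 and 15.3 CPM (-1.53, SE 0.11, adjusted p = 6.87e-12). Fosb, a subunit of AP-1, went from 24.6, 20.4 and 21.4 CPM to 7.51 and 8.11 CPM (-1.5), and Fosl1 from 171, 150 and 156 CPM to 58.2 and 82.1 CPM (-1.20). Dusp5, a phosphatase that acts on nuclear ERK, went from 73.1, 63.4 and 65.1 CPM to 18.5 and 26.7 CPM (-1.58, SE 0.10, adjusted p = 8.13e-13). Other feedback genes of the same pathway showed no such fall: Dusp6, Spry4, Etv4 and Ccnd1 were not called, at -0.15, -0.01, 0.02 and -0.03, while Spry1 rose by 0.75 and Dusp4 by 0.37.

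Among YAP and TEAD targets, Ankrd1 went from 159, 171 and 179 CPM to 73.0 and 76.1 CPM (-1.19, adjusted p = 1.99e-12). Ccn1, a matricellular protein, went from 408, 385 and 366 CPM to 188 and 189 CPM (-1.03, adjusted p = 1.86e-12), and its relative Ccn2 fell by 0.62 on the log2 scale. In the opposite direction, Ccdc80, a secreted matrix protein, rose from 17.3, 15.6 and 14.4 CPM to 47.4 and 49.0 CPM (1.61), and Tgfb2, a ligand of the TGF-β family, by 1.15. Of 22 TGF-β and BMP genes 7 were higher (31.8%, beside 17.2% of all genes) and 2 lower (9.09%, beside 16.8%). Among them, Tgfbi, a matrix protein induced by TGF-β, went from 28.5, 29.7 and 27.7 CPM to 75.8 and 82.2 CPM (1.46). The ligand gene Bmp7 went from 19.6, 15.6 and 15.1 CPM to 8.33 and 6.62 CPM (-1.18). With only the 5 libraries in the fit, 3 immediate early genes, 4 YAP and TEAD targets and 3 ERK output genes were lower. In the same fit, 3 YAP and TEAD targets, 2 ERK output genes, 3 TGF-β and BMP genes and no immediate early gene were higher. Without replicate 1 of day 5, 4 immediate early genes were lower.

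Genes that restrain the cell cycle rose and genes of DNA replication fell, beside 17.2% of all genes called higher and 16.8% lower. Of 13 inhibitors 7 were higher and none lower (median 0.43; 5 with only the 5 libraries), and of 22 replication genes 11 were lower and none higher (median -0.23; 3 with only the 5 libraries). Btg2, an antiproliferative protein, went from 4.25, 5.29 and 5.17 CPM to 12.4 and 13.7 CPM (1.42, adjusted p = 1.26e-11), and its relative Tob1 rose by 0.97. Cdkn1b, which encodes the inhibitor p27, went from 48.6, 67.3 and 64.9 CPM to 103 and 113 CPM (0.86, adjusted p = 1.3e-05), and Rbl2, a relative of the retinoblastoma protein, rose by 0.68. Cdkn1a, the p53 target that encodes p21, stood at 0.00 (adjusted p = 0.981). E2f1, the transcription factor of S phase entry, went from 123, 102 and 105 CPM to 72.3 and 78.3 CPM (-0.55, adjusted p = 2.03e-06), with Ccne1 at -0.52 and Tyms, the thymidylate synthase, at -0.49.

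Mitotic genes did not fall with them. Of 22 listed, 3 were higher (13.6%, beside 17.2% of all genes) and 2 lower (9.09%, beside 16.8%), with a median of 0.05. Mki67, the proliferation marker, had 722, 877 and 876 CPM at day 1 and 1063 and 767 CPM at day 5, which overlap (0.14, adjusted p = 0.346). Nusap1, a spindle protein, rose by 0.42, and Birc5, the survivin gene, fell by 0.35 on the log2 scale. In NaJa-D, 13 of the 22 mitotic genes fell (15.3% of all genes were called lower there), and in NaJa-F 4 fell (7.01% of all genes). Under encorafenib, in contrast, 19 of the 22 rose (20.6% of all genes). The difference was called for 10 genes against NaJa-D (45.5%, beside 14.8% of all genes), all with the larger value in NaJa-G. It was called for 14 against encorafenib (31.7% of all genes), all with the smaller value under DMSO.

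Ribosome biogenesis fell in NaJa-G as in the other lines under DMSO. Of 21 listed genes 17 were lower (81%, beside 16.8% of all genes) and none higher (median -0.56), with 13 lower when only the 5 libraries entered the fit. Rrp9, a part of the complex that processes ribosomal RNA, went from 110, 88.8 and 92.4 CPM to 41.9 and 58.3 CPM (-0.96, SE 0.10, adjusted p = 1.91e-08). Nolc1, a nucleolar phosphoprotein, went from 368, 344 and 357 CPM to 221 and 217 CPM (-0.70), and Ncl, which encodes nucleolin, from 2236, 2013 and 2032 CPM to 1414 and 1184 CPM (-0.69). Every day 5 library lay below every day 1 library in these genes. Myc, a known activator of the group, was not called (192, 178 and 176 CPM, then 140 and 182 CPM; -0.19, adjusted p = 0.0767). In NaJa-D 18 and in NaJa-F 13 of the 21 fell and none rose, beside falls of 15.3% and 7.01% of all genes. Under encorafenib 8 rose and 2 fell, beside 20.6% and 20.4% of all genes. The change was more negative in NaJa-G under DMSO for 8 genes against NaJa-D, 9 against NaJa-F and 17 against encorafenib, and less negative for 1, 0 and 1. Over all genes, a difference in either direction was called for 14.8%, 6.27% and 31.7%.

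Cytosolic ribosomal protein genes fell as a group by less, and their count rested on single libraries. Of 84 genes 43 were lower (51.2%, beside 16.8% of all genes) and none higher (median -0.33), with Rpl31 at -0.61 and Rpl6 at -0.59. The count was 21 without replicate 1 of day 1, 12 without replicate 1 of day 5, and 2 with only the 5 libraries in the fit. Reads of ribosomal protein genes may also fall on their processed pseudogenes.

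Genes encoded by the mitochondrial genome fell almost throughout, with 15 of 16 lower (16.8% of all genes), none higher and a median of -1.45. This list was added after the values had been seen. mt-Nd4, a subunit of complex I, went from 2756, 2422 and 2345 CPM to 857 and 487 CPM (-1.95, SE 0.16, adjusted p = 5.97e-11), mt-Cytb from 9173, 7554 and 7573 CPM to 2765 and 1786 CPM (-1.85) and mt-Co1 from 17295, 14737 and 14215 CPM to 5698 and 3594 CPM (-1.76). mt-Co2 was measured at a far lower level than mt-Co1, 37.7 to 50.4 CPM at day 1, and fell as well (-1.74), and nuclear copies of mitochondrial genes leave the assignment of reads uncertain. The ribosomal RNA gene mt-Rnr1 was the exception, with 223, 190 and 188 CPM and then 173 and 163 CPM (-0.24, adjusted p = 0.102). Subunits of the respiratory chain that the nucleus encodes moved little: 12 of 77 were lower and 1 higher (median -0.16). These are 15.6% and 1.3%, beside 16.8% and 17.2% of all genes. No lower call was left when only the 5 libraries entered the fit, and 6 were left without replicate 1 of day 1. Mitochondrial genes were lower in the other cultures too, 16 of 16 in NaJa-D, 14 in NaJa-F and 12 under encorafenib. Over all genes, 15.3%, 7.01% and 20.4% fell in these cultures. The difference of the intervals was called for 1 of the 16 against NaJa-D, with the higher value in NaJa-G. It was called for 4 against NaJa-F (median difference -0.50) and for 9 against encorafenib (-0.87), each with the lower value in NaJa-G under DMSO. Over all genes, the difference was called for 14.8% against NaJa-D, 6.27% against NaJa-F and 31.7% against encorafenib. For mt-Nd4 the difference from NaJa-F was -0.87 (adjusted p = 0.0057) and for mt-Co1 -0.63 (adjusted p = 0.026, not called).

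**Figure D5:**
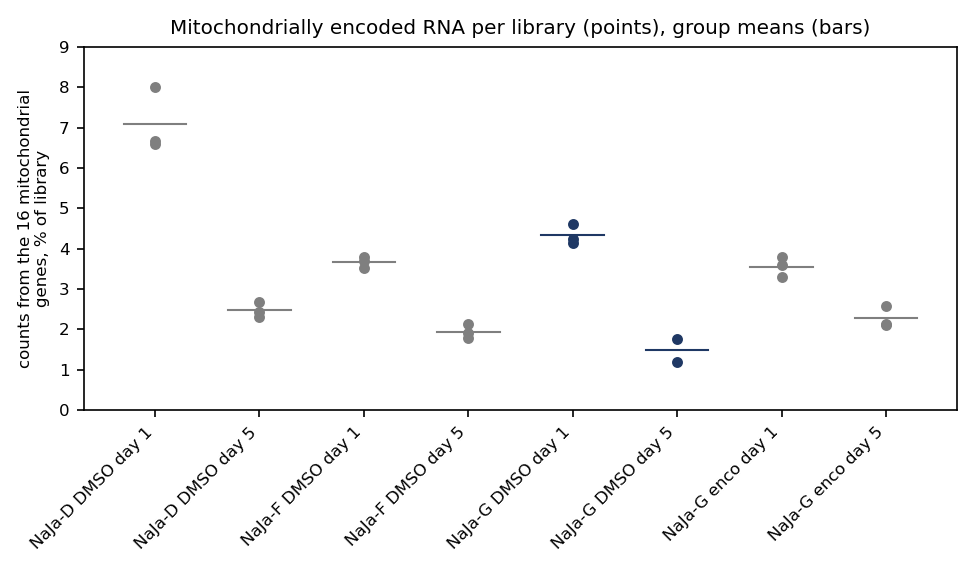
Share of all counts that came from the 16 mitochondrially encoded genes, in percent, for each library of 8 groups. In NaJa-G under DMSO it went from 4.14% to 4.61% at day 1 to 1.19% and 1.77% at day 5, and in each line and treatment shown the day 5 libraries lie below the day 1 libraries.

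Outside the lists, the genes with the highest fold changes included those of a growth factor, a cell death protein and an enzyme that makes a lipid mediator. They were the called genes with a mean of at least 2 log2 CPM, no overlap between days and the 14 highest or lowest changes. Ptn (ENSMUSG00000029838, chromosome 6, 36714929 to 36810220), which encodes the growth factor pleiotrophin, went from 2.36, 2.87 and 2.66 CPM to 18.6 and 19.1 CPM, a log2 fold change of 2.85 (SE 0.13, adjusted p = 7.09e-16). Bmf (ENSMUSG00000040093, chromosome 2, 118528757 to 118549687), a BH3-only protein that triggers apoptosis, went from 4.33, 4.14 and 3.79 CPM to 25.0 and 24.9 CPM (2.60, SE 0.16, adjusted p = 2.11e-13). These were 7.18-fold and 6.10-fold rises of the mean. Enpp2, which encodes autotaxin, the enzyme that makes lysophosphatidic acid, went from 8.13, 8.24 and 9.91 CPM to 36.6 and 38.4 CPM (2.11). Prdm1, a transcriptional repressor, went from 8.56, 7.61 and 7.52 CPM to 35.2 and 30.7 CPM (2.05).

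Ptn and Bmf took the opposite course under encorafenib. Ptn averaged 50.9 CPM at day 1 and 23.2 CPM at day 5 with the drug, and Bmf 27.4 and 11.8 CPM, and they fell by 1.13 and 1.22 on the log2 scale. Bmf rose in the other lines under DMSO too, by 2.02 in NaJa-D and 1.25 in NaJa-F. The kinesin gene Kif26b (2.32), the cytochrome P450 gene Cyp2s1 (2.26), Pik3ip1, an inhibitor of PI3-kinase (2.05), the RNA-binding protein gene Celf5 (1.93) and Trp53inp1, a stress gene controlled by p53 (1.89), complete the protein-coding genes of the rule, and all but Ptn and Enpp2 among these also rose in NaJa-D. CT010467.1, a ribosomal RNA gene, and Gm9899, a processed transcript, met the rule through 1 library: they had 1538 and 100 CPM in replicate 1 of day 5 and 341 and 19.8 CPM in replicate 3. Neither passed with only the 5 libraries in the fit (adjusted p = 0.0192 and 0.0964).

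Among the lowest fold changes, beside Acta2, the collagen genes, Nid1, Serpinh1 and the mitochondrial genes named above, were Lce1h, Lce1g, Serpinb2 and Pbp2. Lce1h, a protein of the cornified envelope, went from 10.2, 8.34 and 9.55 CPM to 0.853 and 1.83 CPM (-2.85, SE 0.26, adjusted p = 6.72e-10), and its paralog Lce1g from 23.5, 21.6 and 22.1 CPM to 6.22 and 6.35 CPM (-1.83), although reads may be split between such close copies. Serpinb2, an inhibitor of plasminogen activators, went from 11.1, 10.5 and 10.4 CPM to 3.04 and 3.19 CPM (-1.77), and Pbp2, a phosphatidylethanolamine-binding protein, from 14.1, 13.5 and 16.7 CPM to 3.58 and 4.10 CPM (-1.92). These 4 genes fell in NaJa-D and NaJa-F as well, while under encorafenib Lce1h and Lce1g rose by 0.53 and 0.61.

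Epithelial genes fell more often than they rose. Of 22 listed, 10 were lower and 2 higher (median -0.38), beside 16.8% and 17.2% of all genes, and 2 of the 10 passed with only the 5 libraries. Krt18, a keratin of simple epithelium, went from 1531, 1191 and 1218 CPM to 684 and 823 CPM (-0.80, adjusted p = 2.08e-07), and its partner Krt8 by -0.38, whereas Krt19 stood at 0.00. Cdh17, the liver-intestine cadherin, fell by 0.64 and Epcam by 0.45 on the log2 scale. Dsp, which encodes the desmosomal protein desmoplakin, rose from 383, 348 and 337 CPM to 723 and 628 CPM (0.92, adjusted p = 1.98e-09). Cdh1 was not called (0.17, adjusted p = 0.0732).

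The genes of the engineered alleles were read for their summed transcripts, which do not separate mutant from wild-type RNA. The study reports that the NaJa lines lost the wild-type Trp53 allele, and that the wild-type Apc band disappeared with the host cells. Braf had 37.9, 42.3 and 42.6 CPM at day 1 and 62.2 and 45.4 CPM at day 5 (0.38, adjusted p = 0.00628), a call that was lost without replicate 1 of day 5 and without replicate 1 of day 1. Trp53 went from 229, 211 and 215 CPM to 166 and 199 CPM (-0.26, adjusted p = 0.000533), also lost without replicate 1 of day 5. Apc was not called, with 205, 192 and 193 CPM and then 268 and 206 CPM (0.26, adjusted p = 0.0237).

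Across all genes, the change over the interval in NaJa-G differed from that in NaJa-D for 2088 genes and from that in NaJa-F for 885, and the change under DMSO differed from that under encorafenib for 4473. Of the 2432 genes that rose in NaJa-G, 884 also rose in NaJa-D (36.3%) and 147 fell there, and 1000 also rose in NaJa-F (41.1%) and 19 fell. Of the 2372 that fell, 970 also fell in NaJa-D (40.9%) and 66 rose, and 735 also fell in NaJa-F (31%) and 14 rose. The difference itself was called for each of these opposite pairs, which adds little, since both changes had already been called with opposite signs. Under encorafenib, where 20.6% of all genes rose and 20.4% fell, 726 of the 2432 rose (29.9%) and 563 fell, and of the 2372 649 fell (27.4%) and 366 rose. The labels of 1 DMSO library of day 1 disagree, with NaJa-D in the title and NaJa-G given as the cell line. It was counted as NaJa-D, and without it 1472 genes differed between NaJa-G and NaJa-D. In this library Acta2 lay at 0.0728 CPM and Nkd1 at 0.606 CPM. Replicates 1 and 2 of its group had 0.0209 and 0.0938 CPM of Acta2 and 0.817 and 0.680 CPM of Nkd1. The NaJa-G DMSO libraries of day 1 held at least 27.2 and 78.2 CPM of these genes.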

How the data were processed

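Total RNA of 34 samples had been sequenced, and the authors deposited 1 table of raw read counts per gene, of which the 5 NaJa-G DMSO columns at days 1 and 5 carry the comparison and the other groups the shared estimate of the spread. Per the submitters' processing notes, reads were trimmed with Trimmomatic 0.39 and aligned with STAR 2.5.2b to GRCm38 (mm10). The counting tool, the release of the annotation and whether strand was used are not given in the sources used here, so reads of overlapping and antisense genes cannot be told apart. The study's methods state that genes with a summed count above 2 were kept, and the smallest sum in the table was 360, with each gene above 1 CPM in at least 2 libraries. Sample groups came from the labels, and all 34 columns were mapped.

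In R 4.3.3, counts were scaled by TMM (edgeR 4.0.16) and fitted with limma 3.58.1 (voom), with 1 mean for each of 12 groups, no further filter and Benjamini-Hochberg adjustment over all 14107 genes. CPM values use the TMM-scaled library sizes, and levels of different genes are not corrected for length. Differences between intervals were tested as contrasts of the same fit. Scripts were tested on simulated data. With 3 against 2 libraries an exact permutation test cannot reach 0.05 and was not used. Total counts of 56441590 to 80121299 leave counting error largest for genes of low CPM.

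Named genes were list members, the engineered alleles, and the 14 highest and 14 lowest log2 fold changes among called genes with a mean of at least 2 log2 CPM and no overlap between days. For each difference between intervals the 5 highest and 5 lowest called genes with that mean level were named. A few genes that these rules name are not reported here. The members and lists were chosen with earlier results of these data known, and the mitochondrial list, the CArG box and 3 added fits after seeing these values. Promoters came from RefSeq (GRCm38.p6) and gene positions from GENCODE M21 (GRCm38). Alternatives were edgeR's quasi-likelihood test, DESeq2 1.42.0, limma-trend, other scalings, filters and thresholds, a GC correction, a replicate block, fits with fewer groups, and leaving out each library. Figures were drawn with matplotlib 3.10.9.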

Additional observations from a re-analysis of the deposited data

Results flagged for a closer look

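The interval from day 1 to day 5 in DMSO changed expression differently in NaJa-G than in NaJa-D for 2088 genes and than in NaJa-F for 885, and NaJa-G changed differently under DMSO than under encorafenib for 4473, each by limma's test of the difference with an adjusted p below 0.01. The groups hold 2 or 3 libraries, so that no single library was tested as an outlier. The values below are differences of log2 fold changes, NaJa-G under DMSO minus the other culture, and each was called. The highest and lowest are those among called genes with a mean of at least 2 log2 CPM over the libraries of the contrast, so that called genes of a lower mean level are left out of these orders, such as Acta2 and Nid1 against NaJa-D and NaJa-F, with lower differences, and Ptn against NaJa-D and Pik3ip1 against NaJa-F, with higher ones.

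Against NaJa-D, the highest differences were those of Apcdd1 (2.15), the amino acid transporter gene Slc16a10 (2.13), the neurotensin gene Nts (1.97), the autotaxin gene Enpp2 (1.88) and Gpr155 (1.88). Slc16a10 rose by 1.64 in NaJa-G and fell by 0.49 on the log2 scale in NaJa-D, and Gpr155 rose by 1.26 and fell by 0.63. The lowest were those of Col1a1 (-2.14), the cornified envelope gene Ivl (-1.81), Rasa4 (-1.71), the stress gene Nupr1 (-1.71) and Chac1 (-1.64), which degrades glutathione. Rasa4 and Nupr1 were not called in NaJa-G, at 0.02 and -0.13, and rose by 1.73 and 1.58 in NaJa-D, whereas Chac1 fell by 0.73 on the log2 scale in NaJa-G and rose by 0.91 in NaJa-D.

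Against NaJa-F, the highest differences were those of Nts (1.46), Btg2 (1.35), Bmf (1.35), Cyp2s1 (1.32) and the homeobox gene Msx1 (1.32). The lowest were those of Col1a1 (-1.90), Lce1h (-1.60), Pdcd1lg2 (-1.53), which encodes the ligand PD-L2, the proenkephalin gene Penk (-1.41) and Tagln (-1.33). Penk was not called in NaJa-G (0.03) and rose by 1.44 in NaJa-F. The call of Col1a1 was lost with only the groups compared (adjusted p = 0.0109) and that of Lce1h without replicate 1 of day 5 (adjusted p = 0.0129).

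Between DMSO and encorafenib in NaJa-G, the highest differences reported here were those of 4930438A08Rik (5.55), Slurp1 (5.11), the chemokine receptor gene Cxcr6 (4.52) and Tesc (4.43). All of them rose with DMSO and fell with encorafenib: Slurp1 averaged 130 CPM at day 1 and 7.18 CPM at day 5 with the drug. The lowest were those of Acta2 (-3.95), Lce1h (-3.38), Loxl2 (-2.96), the diacylglycerol kinase gene Dgkk (-2.95) and Ctla2a (-2.76). Dgkk fell by 1.82 on the log2 scale with DMSO and rose by 1.13 with encorafenib, and Ctla2a fell by 0.85 and rose by 1.90.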

How the results depend on the processing

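The count for day 5 against day 1 (4804) was 4765 with edgeR, 4993 with DESeq2 and 4681 with limma-trend. It was 4634 by limma with relative log expression (RLE) scaling in place of TMM. It moved to 559 with a fold limit, and with only the groups compared to 1182 by limma, 1278 by edgeR and 2782 by DESeq2, fits that estimate the spread from 5 libraries. Leaving out 1 library gave 3249 (without replicate 1 of day 5) to 4430, where a day 5 group of 1 library is assumed to vary like the other groups. The difference from NaJa-D (2088) moved to 3614 at an adjusted p below 0.05, 270 with the fold limit and 634 with only the groups compared, and ranged from 1307 (without replicate 1 of day 5) to 2411 with 1 library left out. The difference from NaJa-F (885) moved to 1690, 131 and 382 in these settings and ranged from 567 (without replicate 1 of NaJa-F day 1) to 831. That from encorafenib (4473) moved to 1380 with the fold limit and ranged from 3767 to 4593. Scaling by library size alone took the share of positive differences from NaJa-D from 60.7% of 2088 to 34% of 2485.

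Replicate numbers do not pair the samples by the labels, and deviations of same-numbered libraries correlated at -0.27 and -0.19; with a replicate block the counts were 4500, 1873, 734 and 4119. Of 396 named genes called between the days, 172 were called under all alternatives except the fold limit, 178 with only the 5 libraries, and 0 changed sign. Across genes, fold changes correlated with GC content at -0.064 and with length at 0.14. Within the groups the link to GC was stronger. The difference between the day 5 libraries correlated with GC at -0.33. For replicate 1 of day 1 against replicates 2 and 3 the values were 0.16 and 0.15. With the GC correction, 4847 genes passed between the days. Day 5 has 2 libraries, and genes below 1 CPM rest on few reads.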

Other observations

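Other gene groups of NaJa-G under DMSO also held called genes, beside 17.2% of all genes higher and 16.8% lower. Of 16 circadian clock genes 7 were higher at day 5 and none lower, among them the clock output gene Dbp from 2.71, 2.00 and 2.11 CPM to 5.03 and 5.42 CPM (log2 fold change 1.21) and Per2 from 6.80, 8.95 and 8.47 CPM to 17.5 and 16.2 CPM (1.07). Of 25 genes of the ATF4 and amino acid response 9 were lower and 4 higher, with Phgdh, the first enzyme of serine synthesis, at -0.91 and Vldlr, a lipoprotein receptor, at 0.99. With only the 5 libraries in the fit, 3 of this list were lower. Of 18 NRF2 targets 5 were higher, including the glutathione transferase genes Gsta4 (1.02) and Gstm1 (0.98), and 6 lower, including Hmox1 (-0.60), the heme oxygenase gene, and with only the 5 libraries 4 were higher and 1 lower. Of 18 glycolysis genes 7 were lower and 2 higher, Hk2 at -0.61 and Aldoc at 1.83, and the lower count fell to 4 without replicate 1 of day 1, 2 without replicate 1 of day 5 and 1 with only the 5 libraries. Of 18 hypoxia genes 7 were higher and 5 lower, with Ddit4 from 14.7, 12.5 and 11.6 CPM to 30.5 and 46.6 CPM (1.55). Without replicate 1 of day 5, 3 hypoxia genes were lower, and with only the 5 libraries 3 were higher and 2 lower.

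Of 24 interferon response genes 8 were higher and 2 lower (at least 5 and 0 with 1 library left out, 2 and 0 with only the 5 libraries), with Ifitm3 from 9.25, 8.64 and 8.42 CPM to 22.4 and 27.3 CPM (1.5), a smaller rise than in NaJa-F (3.52, difference -2.02). MHC class I and loading genes gave 4 higher and 1 lower of 16, among them H2-T23 (1.01), Tapbp (0.67) and B2m (0.52). Of 19 chemokines and cytokines 5 were higher and 5 lower, and Cxcl15 went from 0.393, 0.241 and 0.0665 CPM to 2.99 and 3.46 CPM, a log2 fold change of 3.99 that stood at 4.87 in NaJa-D and 4.18 in NaJa-F. Without replicate 3 of day 5, 3 chemokines were higher and 5 interferon genes. Of 25 lysosome and autophagy genes 6 were higher and 1 lower, with 12 higher when scaled by library size alone and 2 without replicate 3 of day 5. Notch genes gave 4 higher of 13 (Hey1 1.32; 2 without replicate 1 or replicate 3 of day 5), the unfolded protein response 4 higher (25%) and 2 lower (12.5%) of 16, and receptor kinases 4 higher (20%) and 4 lower (20%) of 20, shares near those over all genes, with the insulin receptor gene Insr at 0.64 and Ret at -0.78.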
